A study of Mus musculus with 4 samples.

Results

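The genes described here are the amino acid transporter genes of mouse medulloblastoma cells, as read by RNA sequencing with and without an inhibitor of Smoothened, the signal transducer of the Hedgehog pathway. Members were taken by name: protein-coding genes whose symbol begins with Slc3a, Slc7a, Slc36a, Slc38a or Slc43a and a digit, and in addition Slc1a1, Slc1a4, Slc1a5 and Slc6a9. This gave 40 of the 55573 genes in the table. One of the 40, Slc7a6os, is named for its place beside Slc7a6 and encodes a nuclear protein rather than a transporter, so 39 members are transporters or transporter subunits.

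All 4 libraries came from SmoWT cells, a mouse medulloblastoma culture of the Sonic Hedgehog subtype with the genotype Ptch1+/-, Trp53-/- on C57BL/6, derived from tumours that arose spontaneously and grown as neurospheres in Neurobasal(-A) medium with B27(-A) and an antibiotic mix. The genotype and the medium were shared by both groups. The control group was 2 libraries of cells given the solvent DMSO, and the treated group was 2 libraries of cells given 0.1 µM GDC0449 (vismodegib, a Smoothened antagonist), both for 24 h. The labels do not say how many tumours or animals the culture came from. They also do not tell whether both libraries of a group came from cultures kept apart, so the p-values describe the spread between these 4 samples, and that spread may be technical.

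Amino acids cross the plasma membrane through carriers of several solute carrier families. Some work as heterodimers, in which a heavy chain (Slc3a2 or Slc3a1) is joined by a disulfide bond to a light chain of the Slc7 family that carries the substrate. Other carriers work alone: cationic amino acid carriers of the Slc7 family, sodium-coupled carriers of the Slc1, Slc6 and Slc38 families, proton-coupled carriers of the Slc36 family and facilitative carriers of the Slc43 family. Several of these genes are textbook targets of ATF4, the transcription factor that is made when amino acids are scarce or the endoplasmic reticulum is stressed. ATF4 binds, as a dimer with a C/EBP-family or related partner, to a composite site called the CEBP-ATF response element.

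Promoter windows of members that hold the core letters of that site are shown here because the genes that fell are compared below with genes that ATF4 is known to act on. Sequences are from RefSeq on build GRCm38.p6, which held a window for 29 of the 40 members. A window ran from 250 bases before to 50 bases after the start of a transcript. Each sequence is printed from 150 bases before to 20 bases after the start, 5′ to 3′ on the strand of the gene. The capitals mark matches to TGATGNAA on either strand.
Slc7a11, minus strand, chr3:50443594-50443763: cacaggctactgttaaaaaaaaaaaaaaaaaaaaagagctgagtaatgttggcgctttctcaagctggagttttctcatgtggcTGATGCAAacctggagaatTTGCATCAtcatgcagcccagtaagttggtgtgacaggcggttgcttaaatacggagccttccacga
Slc1a4, minus strand, chr11:20332694-20332863: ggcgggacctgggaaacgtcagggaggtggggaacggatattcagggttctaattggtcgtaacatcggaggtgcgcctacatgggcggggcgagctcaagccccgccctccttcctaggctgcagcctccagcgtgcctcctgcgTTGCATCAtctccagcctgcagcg
Slc7a7, minus strand, chr14:54417925-54418094: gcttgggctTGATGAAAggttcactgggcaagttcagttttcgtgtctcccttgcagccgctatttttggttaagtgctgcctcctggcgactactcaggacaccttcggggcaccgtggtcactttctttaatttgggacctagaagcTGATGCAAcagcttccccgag

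The Slc7a11 window held 2 matches, which begin 66 and 47 bases before the start and lie on opposite strands. The single match of Slc1a4 began 4 bases before the start. Slc7a7 had matches at 141 bases and at 1 base before the start of the transcript shown. The second of these also falls in the window of another Slc7a7 transcript. These were 3 of the 29 members with a window, or 10.3%, beside 4.51% of the 27025 genes with a window and 3.97% of all 32851 windows. Of the 7 members with a window that were called lower in the comparison below, 2 held a match, Slc7a11 and Slc1a4, while Slc7a7 was not called. No window was found for Slc1a5, Slc36a2, Slc38a1, Slc38a3, Slc43a3, Slc7a12, Slc7a13, Slc7a2, Slc7a3, Slc7a4 and Slc7a5.

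Further motifs were searched in the same windows on both strands. The antioxidant response element core TGACNNNGC, read by Nrf2, was found for 6 of the 29 members, or 20.7%, against 14.0% of all genes. Of these, Slc6a9, Slc7a1 and Slc38a2 were called lower in the comparison below, while Slc36a1, Slc43a1 and Slc7a6 were not called. The E-box CACGTG, which Myc proteins can bind, was found for 5 of the 29, or 17.2%, against 8.09% of genes. Of these, Slc38a7 was called lower, Slc36a1 and Slc43a1 were not called, and Slc38a5 and Slc7a14 had too few reads to be tested. The GLI consensus GACCACCCA was found for 0 of the 29 against 0.289% of genes. A match describes the letters of a window and does not show binding, and windows cover neither introns nor distal elements.

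The libraries held 16329721 to 20790030 reads in genes, with 22309 to 23821 genes detected. Reads that fell in no gene made up 12.3% and 13.2% of the DMSO libraries and 14.3% and 14.4% of the GDC0449 libraries, and the part of this shift in the results was not tested. Gli1, the transcription factor gene that reports Hedgehog output, fell from 272 ± 12.9 CPM to 35.8 ± 4.29 CPM under GDC0449 (SD, n = 2). CPM is the usual unit of reads of a gene relative to all reads in genes, with library sizes here scaled by the TMM method of edgeR. Of 12 markers of the granule neuron lineage, from which this tumour type arises, 10 passed the expression filter. Barhl1 did not, with 4 to 10 reads per library, and Gabra6, of mature granule neurons, had 0 reads. The summed level of the 12 was 1107 and 1116 CPM in DMSO and 1459 and 1542 CPM in GDC0449. Of the 10 tested 5 were called higher. Endothelial markers summed to 0.759 to 1.43 CPM per library, with 1 of 2 tested, Pecam1, called higher. Fibroblast markers summed to 1.06 to 2.61 CPM per library, with 1 of 4 tested, Col3a1, called higher. Pecam1 and Col3a1 had 2 to 19 reads per library and passed the expression filter through their GDC0449 libraries alone. Their presence among the tested genes thus depended on the group where they were higher. The summed level of 8 astrocyte markers was 144 and 153 CPM in DMSO and 267 to 270 CPM in GDC0449. Slc1a2 was the largest part of it, with means of 78.1 and 177 CPM. Of 6 tested astrocyte markers 3 were called higher, Slc1a2, Aldoc and Sparcl1, and Aqp4 and Aldh1l1 had 0 reads in every library. Gfap, Gja1 and S100b were not called, and Gja1 had a log2 fold change of -0.22. The summed level of 8 oligodendrocyte markers was 65.9 to 66.3 and 83.1 to 84.5 CPM, with 1 of 4 tested called higher and Mag and Olig1 at 0. The counts of markers called higher stand beside 8.62% of all tested genes, and 14.2% of those under 10 CPM. The part of these markers in the results was not tested. In bulk RNA a smaller number of cells of a type and less RNA per cell cannot be told apart.

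Of the 40 members, 7 had 0 reads in all 4 libraries, 6 had some reads but too few to be tested, and 27 were tested. A gene was called when its Benjamini-Hochberg adjusted p over all 15472 tested genes, from the quasi-likelihood test of edgeR, was below 0.05 and its fold change was over 1.5. By this rule 10 members fell, 2 rose and 15 were not called. Among all tested genes 3.8% were called lower and 8.62% higher. The members called lower, 10 of 27 or 37.0%, were thus a larger share than that of all tested genes. The 2 called higher, 7.41%, were near that of all genes. The median log2 fold change of the 27 was -0.21, and that of all tested genes was 0.01. Groups did not overlap for 22 of the 27, and did not overlap for 10187 of the 15472 genes. One tested member, Slc7a8, passed the expression filter through its GDC0449 libraries alone, so its presence among the tested genes depended on the group where it was higher.

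**Figure D1:**
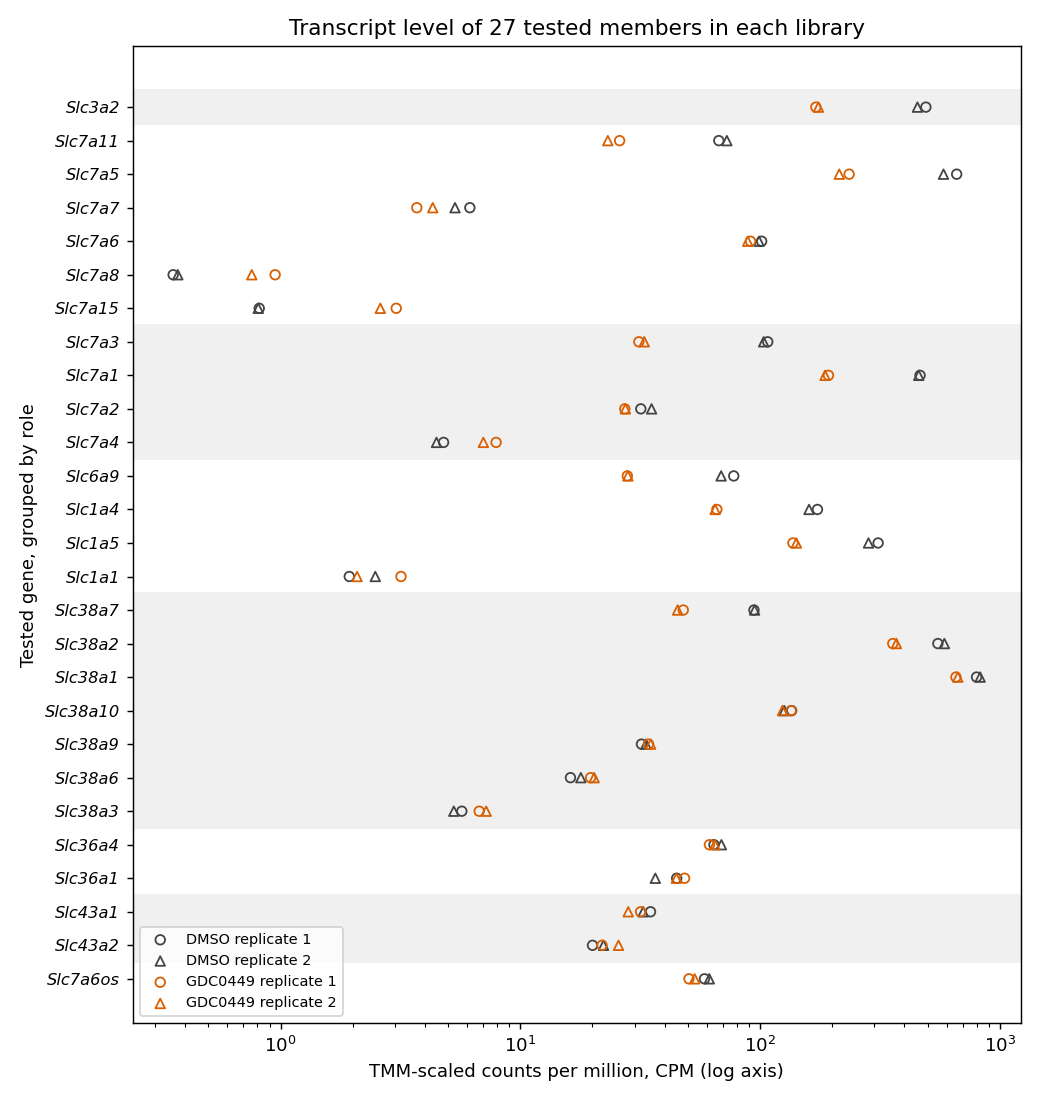
Level of the 27 tested members in each library, in TMM-scaled CPM on a log axis, grouped by role. Circles and triangles are replicates 1 and 2, grey for DMSO and orange for GDC0449. The orange symbols of Slc3a2, Slc7a5, Slc7a11, Slc7a1, Slc7a3, Slc1a4, Slc1a5, Slc6a9, Slc38a2 and Slc38a7 lie to the left of the grey ones with no overlap.

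All 10 members called lower were at 10 CPM or more on average. Of the 21 tested members at that level 0 were called higher with edgeR, DESeq2 or voom. With edgeR 2 were higher and 14 lower at an unadjusted p below 0.05, and 0 and 13 at an adjusted p below 0.05. Of all 9627 tested genes at that level, 3.26% were called lower and 5.24% higher. Of 6 tested members under 10 CPM, 0 were called lower with edgeR or DESeq2 and 2 were called higher. With edgeR 1 was lower at an adjusted p below 0.05 but under the fold threshold. Among the 5845 tested genes under 10 CPM, 4.69% were called lower and 14.2% higher. The summed level of all members was 4361 and 4247 CPM in the DMSO libraries and 2497 and 2488 CPM in the GDC0449 libraries.

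The heavy chain Slc3a2, which encodes CD98hc and brings its light chains to the cell surface, was at 492 and 454 CPM in the DMSO libraries and at 171 and 175 CPM in the GDC0449 libraries. Both treated libraries lay far below both controls, a 2.73-fold fall (log2 fold change -1.45, SE 0.06, adjusted p = 4.87e-25). Slc3a2 (ENSMUSG00000010095) spans chromosome 19, 8706882 to 8723369, on GRCm38. The other heavy chain, Slc3a1, the kidney and gut partner for cystine uptake, had 7 to 12 reads per library and was not tested, and 26.5% of its exonic bases overlap the gene Prepl on the opposite strand.

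Slc7a5 encodes LAT1, the light chain that exchanges large neutral amino acids such as leucine. It was at 661 and 582 CPM in DMSO and at 235 and 214 CPM in GDC0449. The groups stood well apart, and the fall was 2.77-fold (log2 fold change -1.47, SE 0.06, adjusted p = 1.27e-24). Slc7a5 (ENSMUSG00000040010) spans chromosome 8, 121881150 to 121907694.

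Slc7a11 encodes xCT, which imports cystine in exchange for glutamate and so feeds glutathione synthesis. It was at 67.3 and 72.7 CPM in DMSO and at 26.0 and 23.2 CPM in GDC0449. Again both treated libraries were below both controls, by 2.85-fold (log2 fold change -1.51, SE 0.08, adjusted p = 1.77e-20). Slc7a11 (ENSMUSG00000027737) lies on chromosome 3, 49892526 to 50443614, and its promoter window is the one shown above with a pair of matches.

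The other light chains that were tested were not called lower. Slc7a6 encodes y+LAT2, which exchanges cationic for neutral amino acids. It was at 102 and 99.0 CPM in DMSO and at 91.3 and 88.8 CPM in GDC0449, groups that did not overlap but differed by a log2 fold change of -0.16 (adjusted p = 0.0685). Slc7a7 encodes y+LAT1, which has a similar activity and is abundant in macrophages. It was at 6.16 and 5.34 CPM in DMSO and at 3.70 and 4.31 CPM in GDC0449. Its log2 fold change of -0.53 had an adjusted p of 0.0285 but missed the fold threshold. Without GDC0449 replicate 2 it passed both thresholds, at -0.64. The summed level of 8 microglia and macrophage markers was 4.89 and 7.20 CPM in DMSO and 2.32 and 3.08 CPM in GDC0449. Of 3 tested 2 were called lower, beside 4.69% of all tested genes under 10 CPM. These were Tyrobp, with 3 to 17 reads per library, and Lyz2, with 27 to 67, the largest part of the sum. Tyrobp and Csf1r, the tested marker that was not called, passed the expression filter through their DMSO libraries alone. Their presence among the tested genes, and so the count, depended on the group where they were higher. The other 5 markers had too few reads to be tested. The part of such cells in the Slc7a7 values was not tested.

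Slc7a15, a relative of the light chains, was the member with the largest increase. It was at 0.814 and 0.807 CPM in DMSO and at 3.04 and 2.61 CPM in GDC0449. These levels rest on 16 and 13 reads against 64 and 55, a 3.46-fold rise (log2 fold change 1.79, SE 0.33, adjusted p = 1.51e-05). Leaving out either DMSO replicate 1 or DMSO replicate 2 ended the call, at adjusted p of 0.0544 and 0.0519, with log2 fold changes of 1.79 and 1.78. On log2(FPKM + 1) its log2 fold change was 0.32, under the fold threshold. Slc7a8, which encodes LAT2, had 7 and 6 reads in DMSO and 20 and 16 in GDC0449, with a log2 fold change of 1.22 and an adjusted p of 0.0507. It passed with upper-quartile scaling, at an adjusted p of 0.0459. Of the remaining light chain genes, Slc7a10 had 1 to 8 reads per library, Slc7a12 a single read in all, Slc7a9 3 reads in all and Slc7a13 none.

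Levels of different genes were compared per length, as TPM, the share of transcripts computed from the counts and the exonic length of each gene and scaled to one total in every library. In DMSO Slc7a5 was highest, at 630 TPM, followed by Slc3a2 at 503, Slc1a5 at 267, Slc38a2 at 242, Slc38a1 at 178, Slc1a4 at 160 and Slc7a1 at 151 TPM. In GDC0449 the order began with Slc7a5 at 239, Slc3a2 at 193, Slc38a2 at 162, Slc38a1 at 151 and Slc1a5 at 132 TPM. The order depended on the measure in both groups. In the authors' FPKM the DMSO order was Slc3a2 at 167, Slc7a5 at 120, Slc38a1 at 80.5, Slc38a2 at 77.4 and Slc1a5 at 76.0. In GDC0449 it was Slc38a1 at 70.6, Slc3a2 at 59.3, Slc38a2 at 49.6, Slc7a5 at 43.5 and Slc1a5 at 36.6 FPKM. Slc7a5 thus led in both groups by TPM and in neither by FPKM. Slc1a5 came before Slc38a2 and Slc38a1 in DMSO by TPM but after both by FPKM, and after both in GDC0449 by either measure. All members together made up 0.279% and 0.270% of TPM in DMSO and 0.148% and 0.147% in GDC0449.

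The light chains that pair with Slc3a2 were summed per length, 6 in all: Slc7a5, Slc7a6, Slc7a7, Slc7a8, Slc7a10 and Slc7a11. Their sum was 770 and 706 TPM in DMSO and 341 and 318 TPM in GDC0449. Slc3a2 amounted to 0.672 and 0.692 of that sum in DMSO and to 0.559 and 0.617 in GDC0449, so the ratio was lower in both treated libraries than in both controls. The size of this ratio holds for TPM only. By FPKM, mean Slc3a2 was above mean Slc7a5, at 167 against 120 in DMSO and 59.3 against 43.5 in GDC0449. Within the light chains Slc7a5 made up 86.0% and 84.6% in DMSO and 73.2% and 71.7% in GDC0449. Slc7a6, which was not called, went from 10.7% and 11.7% to 23.0% and 24.2% of the sum. These shares were not tested, since the smallest p of a two-sided exact permutation test of 2 libraries against 2 is 0.333.

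**Figure D2:**
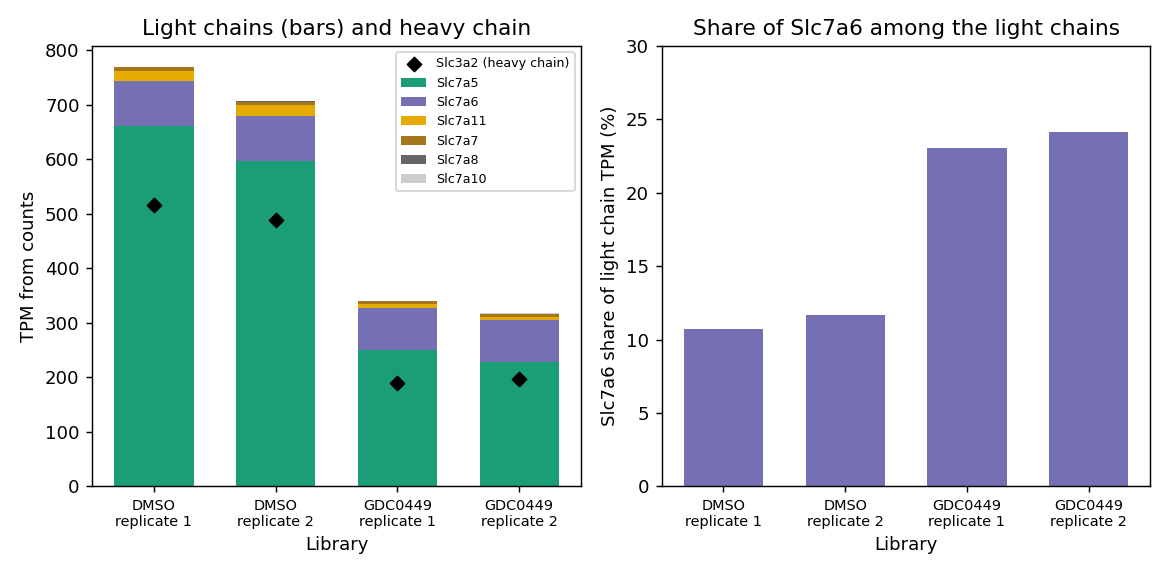
Left, TPM of 6 light chains as stacked bars and of the heavy chain Slc3a2 as a diamond in each library. Right, the share of Slc7a6 in the summed light chains in percent, which was 10.7% and 11.7% in DMSO and 23.0% and 24.2% in GDC0449.

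The cationic carriers Slc7a1 and Slc7a3, which import arginine, lysine and ornithine, both fell. Slc7a3 (CAT3, ENSMUSG00000031297, chromosome X, 101079210 to 101086020) was at 108 and 104 CPM in DMSO and at 31.2 and 32.9 CPM in GDC0449. With 3.30-fold it had the largest fall of any tested member (log2 fold change -1.72, SE 0.08, adjusted p = 1.45e-24). Slc7a1 (CAT1, ENSMUSG00000041313, chromosome 5, 148327410 to 148399904), the widely expressed form, was at 465 and 459 CPM in DMSO and at 193 and 187 CPM in GDC0449. Replicates lay close together and far from the other group, and the fall was 2.43-fold (log2 fold change -1.28, SE 0.06, adjusted p = 2.34e-23).

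The other tested genes of the cationic family were not called lower. Slc7a2 (CAT2) was at 31.8 and 35.3 CPM in DMSO and at 27.3 and 27.4 CPM in GDC0449, a log2 fold change of -0.29 that had an adjusted p of 0.0108 but lay under the fold threshold. Slc7a4, a family member without established transport activity, rose from 4.78 and 4.47 CPM to 7.92 and 7.01 CPM, by 1.61-fold (adjusted p = 0.00149). Leaving out DMSO replicate 1 or DMSO replicate 2 ended this call, at adjusted p of 0.0871 and 0.0968 with log2 fold changes of 0.74 and 0.63, close to the 0.69 of all libraries. On log2(FPKM + 1) and log2(FPKM + 0.1) the log2 fold change itself was under the threshold, at 0.28 and 0.45, with adjusted p of 0.0978 and 0.132. Of the exons of Slc7a4, 13.3% of the bases overlap P2rx6 on the opposite strand. Slc7a14 had a single read. Differences between members of a family were not tested as such.

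Of the 4 sodium-coupled Slc1 and Slc6 members chosen by name, 3 fell, or 75.0%, beside 3.8% of all tested genes. Further Slc1 and Slc6 genes belong to the other carriers read below, of which 0 fell, and Slc1a2 and Slc6a6 rose. Slc1a5 encodes ASCT2, an exchanger of glutamine and other small neutral amino acids. It was at 311 and 283 CPM in DMSO and at 137 and 142 CPM in GDC0449, a 2.13-fold fall (log2 fold change -1.09, SE 0.06, adjusted p = 6.78e-20). Slc1a4 encodes ASCT1, which carries serine, alanine and cysteine. It was at 174 and 160 CPM in DMSO and at 66.0 and 64.97 CPM in GDC0449, a 2.55-fold fall (log2 fold change -1.35, SE 0.07, adjusted p = 2.94e-22). For both genes the lowest control was above the highest treated library. Slc1a5 (ENSMUSG00000001918) is on chromosome 7, 16781340 to 16798274, and Slc1a4 (ENSMUSG00000020142) on chromosome 11, 20302180 to 20332713.

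Slc6a9 encodes GlyT1, a glycine carrier of glia and neurons. It was at 77.7 and 68.8 CPM in DMSO and at 27.9 and 28.1 CPM in GDC0449, a 2.62-fold fall (log2 fold change -1.39, SE 0.08, adjusted p = 1.42e-19). Of its exonic bases 30.3% overlap genes on the opposite strand, among them Ccdc24 and B4galt2, and the strand setting of the counting is not given in the sources used here. Slc1a1 encodes EAAC1, a neuronal carrier of glutamate and cysteine. It was at 1.93 and 2.48 CPM in DMSO and at 3.18 and 2.08 CPM in GDC0449, so the groups overlapped (adjusted p = 0.494). Of its exonic bases 31.9% overlap 4430402I18Rik on the opposite strand.

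The Slc38 family, or SNATs, carries glutamine, alanine and other small neutral amino acids with sodium. Slc38a2 (SNAT2, ENSMUSG00000022462, chromosome 15, 96687392 to 96699730), the form that cells raise on amino acid starvation, was at 552 and 587 CPM in DMSO and at 358 and 370 CPM in GDC0449. It fell by 1.56-fold, close to the fold threshold (log2 fold change -0.65, SE 0.06, adjusted p = 8.25e-13). Slc38a7 (SNAT7, ENSMUSG00000036534, chromosome 8, 95835920 to 95853539), which exports glutamine and asparagine from lysosomes, was at 94.3 and 94.9 CPM in DMSO and at 47.8 and 45.3 CPM in GDC0449. Its fall was 2.03-fold (log2 fold change -1.02, SE 0.07, adjusted p = 1.40e-16), and the treated libraries stood clear of the controls.

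Slc38a1 (SNAT1), the neuronal form, had the most reads of the family, at 800 and 828 CPM in DMSO and 656 and 668 CPM in GDC0449. The groups did not overlap and the adjusted p was 3.87e-05, but the log2 fold change of -0.30 lay under the fold threshold. Slc38a9, the lysosomal arginine sensor of mTORC1, was at 32.0 and 33.4 CPM in DMSO and at 34.3 and 35.0 CPM in GDC0449 (log2 fold change 0.08, adjusted p = 0.505). Slc38a10 was at 135 and 126 CPM in DMSO and at 135 and 124 CPM in GDC0449, overlapping groups whose log2 fold change of -0.02 turned to 0.02 with upper-quartile scaling. Slc38a6 was at 16.2 and 17.9 CPM in DMSO and at 19.6 and 20.3 CPM in GDC0449 (log2 fold change 0.23, adjusted p = 0.0911). Slc38a3, or SNAT3, lay between 5.28 and 7.20 CPM in all libraries (log2 fold change 0.34, adjusted p = 0.115). Slc38a4 had a single read, and Slc38a5, Slc38a8 and Slc38a11 had none.

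For the Slc36 and Slc43 families, 0 of 4 tested members were called by edgeR, by DESeq2 or by voom, and 1, Slc36a1, was higher at an unadjusted p below 0.05 with edgeR. Slc36a1 (PAT1), a proton-coupled carrier of lysosomes and the cell surface, was at 44.9 and 36.6 CPM in DMSO and at 48.4 and 44.8 CPM in GDC0449 (log2 fold change 0.19, adjusted p = 0.0867). Slc36a4 (PAT4) was at 64.2 and 69.0 CPM in DMSO and at 61.5 and 64.7 CPM in GDC0449, with overlapping groups. Slc43a1 (LAT3) and Slc43a2 (LAT4), facilitative carriers of branched-chain amino acids and phenylalanine, carry these substrates down their gradient. Slc43a1 was at 34.9 and 32.5 CPM in DMSO and at 31.7 and 28.2 CPM in GDC0449 (log2 fold change -0.17, adjusted p = 0.143). Slc43a2 was at 20.004 and 22.2 CPM in DMSO and at 21.9 and 25.7 CPM in GDC0449 (log2 fold change 0.18, adjusted p = 0.197), with overlapping groups. Slc36a2, Slc36a3 and Slc43a3 had no reads. A gene with 0 reads among the 77944561 reads in genes can still have a level of up to 0.0385 CPM, the value of 3 reads, which covers counting error only. Slc7a6os, the member that is no transporter, was at 58.6 and 61.4 CPM in DMSO and at 50.5 and 53.4 CPM in GDC0449 (log2 fold change -0.21, adjusted p = 0.0292) and was not called.

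**Figure D3:**
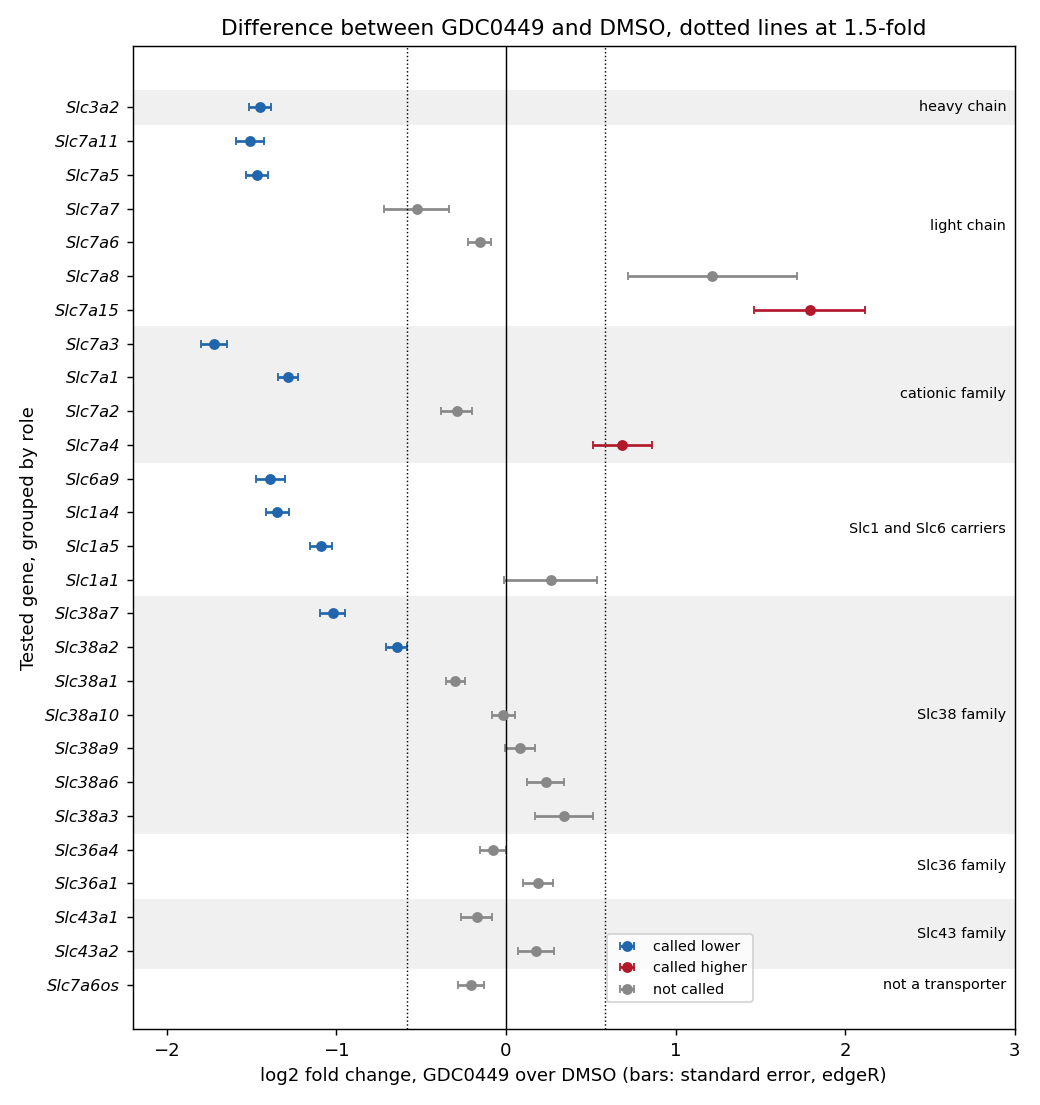
Log2 fold change of GDC0449 over DMSO for the 27 tested members, with standard errors from edgeR, ordered by role. Blue marks genes called lower, red genes called higher and grey genes not called, and dotted lines mark 1.5-fold. The 10 lower genes range from -1.72 for Slc7a3 to -0.65 for Slc38a2, and the 2 higher ones are Slc7a15 at 1.79 and Slc7a4 at 0.69.

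Each of the 10 genes that fell kept its call in all 13 alternative fits tried, which used other scalings, filters, tests and FPKM values, a replicate block, and each library left out in turn. Slc38a2 came closest to the fold threshold in these fits, at -0.61, and the lowest value of any of the 10 was -1.76, for Slc7a3. Neither of the 2 genes that rose kept its call in all of them.

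Several members lie near each other on a chromosome, some at similar levels and some not. Slc38a1, Slc38a2 and Slc38a4 lie close together on chromosome 15, between 96571418 and 97055956, at mean levels of 178, 242 and 0.0222 TPM in DMSO. Slc36a1 lies beside Slc36a2 and Slc36a3 on chromosome 11, at 27.2 TPM against 0 reads for both neighbours. Slc43a1 and Slc43a3 lie on chromosome 2, between 84838850 and 84958509, at 22.2 TPM and 0 reads. Slc7a6 and Slc7a6os, side by side on chromosome 8 between 106168857 and 106210935, were at 82.4 and 53.5 TPM.

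The genes known to act with these carriers were read from 7 lists. Of 15 tested genes of the ATF4 and CHOP stress response 14 fell and 0 rose by edgeR, DESeq2 or voom, with a median log2 fold change of -1.70. The fallen were 93.3% of those tested, beside 3.8% called lower and 8.62% called higher among all tested genes. Of the fallen, Cebpb and Fgf21, named after their values were seen, passed the expression filter through their DMSO libraries alone. Their place in this count thus depended on the group where they were higher. The only stress gene higher at an unadjusted p below 0.05 was Ddit4, an inhibitor of mTORC1, named after its value was seen. Its groups did not overlap and its adjusted p with edgeR was 2.10e-05. Its log2 fold change of 0.35 lay under the fold threshold. Trib3, a pseudokinase gene induced by ATF4 and CHOP, fell from 202 ± 10.9 to 23.7 ± 0.389 CPM (SD, n = 2). Ppp1r15a, which encodes the inducible phosphatase subunit that reverses eIF2alpha phosphorylation, fell 6.40-fold. Chac1, which degrades glutathione, and Ddit3, which encodes CHOP, fell 5.22-fold and 3.13-fold. The transcript of Atf4 itself, named here after its value was seen, fell from 537 ± 31.0 to 262 ± 0.0414 CPM. Of 6 tested eIF2alpha kinases and regulators 1 fell, or 16.7%, and 0 rose by the same tests. With edgeR 3 were higher at an adjusted p below 0.05 but under the fold threshold. The one that fell was Ppp1r15b, the constitutive phosphatase subunit, by 1.77-fold.

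Enzymes that make or interconvert amino acids fell in 11 of 21 cases, with 1 risen and a median of -0.68. These shares were 52.4% lower and 4.76% higher, beside 3.8% and 8.62% of all tested genes. The largest fall of those with the smallest p was in Cth, which makes cysteine from cystathionine, by 3.66-fold, from 66.6 ± 0.269 to 18.2 ± 0.890 CPM. Psph, of serine synthesis, fell 3.01-fold. Gpt2, a mitochondrial alanine transaminase, and Asns, asparagine synthetase, fell 2.67-fold and 2.15-fold. The one that rose, named after its value was seen, was Gpt, the cytosolic alanine transaminase, from 11.5 ± 0.708 to 18.7 ± 1.93 CPM. Its call was lost when DMSO replicate 1, DMSO replicate 2 or GDC0449 replicate 1 was left out, at log2 fold changes of 0.63, 0.75 and 0.58, and on log2(FPKM + 1), at 0.53. Cytosolic aminoacyl-tRNA synthetases, which load amino acids onto tRNA, fell in 10 of 20 cases with 0 risen by any of these tests, also at an unadjusted p below 0.05, and a median of -0.60. Among them Nars, Gars and Yars fell 2.32-fold, 2.10-fold and 2.01-fold, and Aars fell from 958 to 479 CPM. On log2(FPKM + 1) Nars lost its call, at an adjusted p of 0.0515.

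Genes through which amino acids regulate mTORC1 had a median of -0.01, and of 35 tested 3 rose and 1 fell. These shares, 8.57% and 2.86%, were near the 8.62% higher and 3.8% lower of all tested genes. The one that fell was Sesn2, a leucine sensor gene that ATF4 induces, by 3.61-fold, from 161 ± 7.87 to 44.7 ± 2.69 CPM. Sesn1, its paralog, and Castor2, a relative of the arginine sensor Castor1, rose 1.67-fold and 1.82-fold. Deptor rose 1.67-fold, a call lost without DMSO replicate 2, at an adjusted p of 0.0509, and on log2(FPKM + 1) and log2(FPKM + 0.1), at 0.0537 and 0.0717. Of 11 tested Nrf2 and glutathione genes 1 rose and 1 fell, with a median of -0.08. Each was 9.09% of those tested, a share that rests on a single gene, beside 8.62% higher and 3.8% lower among all tested genes. Hmox1, heme oxygenase, fell 3.21-fold. Nqo1 rose 2.66-fold, from 2.38 ± 0.379 to 6.40 ± 0.140 CPM. Gclc and Gclm, the subunits of the first enzyme of glutathione synthesis that uses the cysteine imported by Slc7a11, had log2 fold changes of -0.08 and 0.06 and were not called. They were named after their values were seen.

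Amino acid carriers outside the families chosen here were also read. Of 21 tested 5 rose and 0 fell by edgeR, DESeq2 or voom, with a median of 0.17. The risen were 23.8% of those tested, beside 8.62% called higher and 3.8% called lower among all tested genes. At an unadjusted p below 0.05 with edgeR 6 were higher and 3 lower. At an adjusted p below 0.05 without the fold threshold 6 were higher and 2 lower. The risers were carriers of glutamate, taurine and cationic amino acids. Slc1a2, the glial glutamate carrier, rose 2.27-fold, from 78.1 ± 7.70 to 177 ± 1.96 CPM. It is also 1 of the astrocyte markers whose sum is given above and the largest part of that sum. The rise of the sum is thus no separate reading from the rise of Slc1a2. The part of such cells was not tested. Slc17a7 and Slc17a6, the vesicular glutamate carriers of excitatory neurons, rose 1.92-fold and 1.71-fold, a call that Slc17a6 lost when DMSO replicate 1 or DMSO replicate 2 was left out, at adjusted p of 0.0586 and 0.0960. Slc6a6, the taurine carrier, rose 1.84-fold, and the fifth, named after its value was seen, was Pqlc2, which exports cationic amino acids from lysosomes. The Pqlc2 call was lost without DMSO replicate 1, without DMSO replicate 2 and without GDC0449 replicate 2, at log2 fold changes of 0.75, 0.49 and 0.57, and on both FPKM scales.

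**Figure D4:**
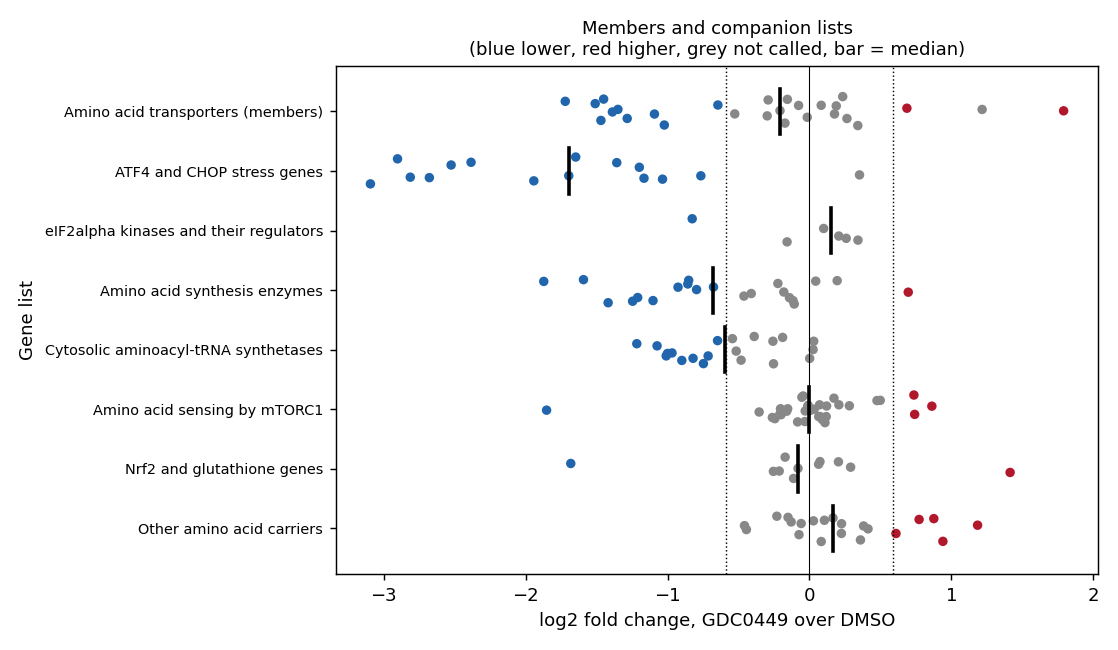
Log2 fold change of each tested gene in the member set and in 7 companion lists, with one point per gene and a black bar at the median. Blue and red points are genes called lower and higher. The stress response list has its median at -1.70, the enzymes at -0.68, the synthetases at -0.60, the members at -0.21 and the other carriers at 0.17.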

How the data were processed

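RNA from 4 libraries was analysed, 2 given DMSO and 2 given GDC0449. Per the submitters' processing notes, the authors trimmed reads with Trim Galore, mapped them to mm10 with HISAT2, counted reads per gene with HTSeq 0.11.1 and tested them with DESeq2 1.26.0. Neither the annotation release nor the strand setting is stated in these sources. Per the file headers, the deposited values were raw counts per gene. The authors also deposited FPKM, which scales by gene length and depth per the series' design text. In 546 genes the counts were 0 in every library while an FPKM of 1 or more was listed. The table holds 6 further rows that stand for no gene, which no fit used: reads in no feature made up 12.3% to 14.4%, ambiguous reads 4.73% to 4.91% and reads without a unique place 10.4% to 10.7%.

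Symbols, biotypes, coordinates and exonic lengths came from GENCODE M21 (GRCm38), which held 55480 of 55573 identifiers. The main test was the quasi-likelihood test of edgeR 4.0.16 (R 4.3.3) with TMM scaling, the default expression filter (the CPM of 10 reads in the median library, in 2 libraries) and group as the only term. The thresholds, an adjusted p of 0.05 and 1.5-fold, are those of the series' design text. SE is the log2 fold change over the square root of F. The estimated biological coefficient of variation was 4.82%. TPM was computed from the counts. Alternatives were 2 other scalings, 2 other filters, DESeq2 1.42.0, voom (limma 3.58.1), limma on log2(FPKM + 1) and log2(FPKM + 0.1), a replicate block, other fold thresholds and leaving out each library. The fit was tested on simulated data.

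Members and lists were chosen with earlier results of these data known. By a fixed rule, library values were given for each called member, each member whose call changed in an alternative and each member at 10 CPM or more. Of each companion list, up to 4 called genes with the smallest p were named, and others are said to be named after their values were seen.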

Additional observations from a re-analysis of the deposited data

How the results depend on the processing

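With 10 members lower and 2 higher on all 4 libraries, the lower count ranged from 10 to 11 when each library was left out and the higher count from 0 to 2. The higher count was 1 with the filter at 5 CPM, 0 on log2(FPKM + 1), 1 on log2(FPKM + 0.1) and 1 with a 2-fold threshold, where 9 were lower. Over all tested genes, 1333 higher and 588 lower became 798 and 367 with the filter at 5 CPM, 503 and 337 on log2(FPKM + 1), 2778 and 2779 without a fold threshold and 646 and 309 at 2-fold. DESeq2 gave 880 higher and log2(FPKM + 0.1) 804 higher. Leaving out each library gave 505 to 1130 higher and 347 to 581 lower, fewest without a DMSO library, where the lone control was assumed to vary like the treated pair. In the companion lists together, tested under the alternatives after the data were seen, 10 were higher and 38 lower. These became 21 and 60 without a fold threshold and 2 and 25 at 2-fold, with 6 to 9 higher when each library was left out. The cause of these shifts was not tested, apart from the fold threshold and the filter, which by construction change what can be called.

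Only members that were not called changed direction. Slc38a10 went from -0.02 to 0.0178 with upper-quartile scaling, 0.0119 with the filter at 5 CPM, 0.17 on log2(FPKM + 1) and 0.18 on log2(FPKM + 0.1), and ranged from -0.0776 to 0.0395 when each library was left out, with 0.0347 without DMSO replicate 1. On log2(FPKM + 1) and log2(FPKM + 0.1), Slc36a4 turned to 0.0063 and 0.0073, Slc38a9 to -0.34 and -0.44, and Slc43a2 to -0.34 and -0.46. Replicate numbers were not shown to pair the libraries: the correlation of deviations between equal numbers was 0.04. The fit with a replicate block called 10 members lower and 3 higher, Slc7a8 being the addition (adjusted p = 0.0415), and 1392 genes higher and 608 lower over all genes. Depth limits the members under 1 CPM, such as Slc7a8 and Slc3a1, with 20 reads or fewer per library.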

Other observations

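For a few members, the authors' FPKM values and the counts gave different pictures of the same libraries. Slc7a7 had 121 and 86 reads in DMSO and 78 and 91 in GDC0449, while its FPKM was 0.337 and 2.37 in DMSO and 0.664 and 0.152 in GDC0449. Replicates that were close in counts were thus several-fold apart in FPKM. Slc38a9 had FPKM of 2.01 and 4.07 in DMSO against 1.99 and 2.18 in GDC0449, although its CPM lay between 32.0 and 35.0 in every library. Slc43a2 had FPKM of 3.01 and 3.31 in DMSO and 1.89 and 2.72 in GDC0449, lower in GDC0449, while its log2 fold change from counts was 0.18. The cause was not tested. For the 10 members that fell, both measures gave the same call.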
